A study of Rattus norvegicus with 9 samples.

Results

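The BCL2 family decides at the outer mitochondrial membrane whether a cell enters apoptosis, and its genes were followed here in RBL-2H3, cultured rat basophilic leukemia cells that serve as a mast cell model. The members were chosen by gene symbol and comprise 4 pro-survival genes (Bcl2, Bcl2l1, Mcl1, Bcl2a1), 2 pore-forming effectors (Bax, Bak1) and 4 genes of the BH3-only class (Bcl2l11, Bad, Bid, Pmaip1). They are 10 of the 38490 gene rows listed for each sample. Values were present for 18006 genes and for 9 of the 10 members. Pmaip1, whose product NOXA binds MCL1, carried no value in any sample and was not analysed here.

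Total RNA was sequenced from 9 samples of RBL-2H3 cells in 3 groups of 3. The control group (Ctrl) is labelled untreated in one field, although a treatment text that all 9 samples share describes sensitization and stimulation. The IgE/DNP group (DNP) received anti-DNP IgE at 50 ng/ml over 12 h as sensitization, and the antigen DNP-HSA at 100 ng/ml over 4 h as stimulation. The PF group had the same sensitization and the same concentration of antigen. Its pretreatment lasted 1 h, with an agent that the labels name only as PF or, in the sample titles, PF1. For PF the labels give stimulation times of 4, 5 and 6 h for replicates 1, 2 and 3 in one field and 4 h in the shared text. Time and sample can therefore not be told apart within this group. By the first field, PF replicates 2 and 3 were also stimulated longer than the DNP samples. Agent and time can then not be told apart in PF against DNP. In PF against Ctrl, the parts of sensitization, antigen and agent cannot be told apart either. The labels name the tissue as peripheral blood, whereas the cells are 1 established line. The labels do not say whether the replicates were separate cultures. A caption of the study that covers several assays, a heatmap among them, mentions 3 independent experiments without naming the sequenced samples. The p-values measure only the spread between these samples.

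Pro-survival BCL2 proteins hold BAX and BAK in check. BH3-only proteins, which are raised or activated by stress, growth factor loss or DNA damage, bind the pro-survival proteins, and some also activate BAX and BAK directly. Once freed, BAX and BAK open the outer membrane, cytochrome c leaves the mitochondria, and the apoptosome activates caspases. In mast cells, survival after IgE receptor crosslinking has been linked to the balance between pro-survival members such as A1 (Bcl2a1) and BH3-only members such as BIM (Bcl2l11).

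Levels are given in FPKM, fragment counts scaled by transcript length and by sequencing depth, which removes the effect of length and allows levels of different genes to be compared. The deposited sums over all genes were 573023 to 591539 in Ctrl and DNP and 610206 to 630069 in PF. Reads per sample are unknown. In a search across the samples, 30 of 5491 genes had values in whole multiples of their lowest value within 3%. This search could not settle the depth, since the samples compared differ in scale. Markers of the line were present in all samples, with Fcer1g, the signalling chain of the IgE receptor, at 631.14 to 824.44 FPKM. Of the 10 mast cell and basophil markers 8 had values, and their sum lay between 2552.07 and 2771.01 FPKM in every sample, with Fcer1g the most abundant. Markers of macrophages, neutrophils, fibroblasts and epithelial cells summed to at most 2.62 FPKM per list in any sample. The neutrophil sum rests on Ly6g6e alone, 1 of 5 genes. The others carried no value. Among T and NK cell markers, Cd3d and Cd8a lay at or near 0, while Nkg7 stood at 503.41 to 613.82 FPKM and Cd3e at 6.74 to 9.52 FPKM. Nkg7 was higher in PF than in DNP (log2 fold change 0.21, adjusted p = 0.00151, limma). Nkg7 and Cd3e were higher in PF than in Ctrl, and both calls were lost when the sums were equalised (adjusted p = 0.214 and 0.127, limma). Both were also lost in several fits without 1 sample, with the highest p at 0.0872 for Nkg7 without PF replicate 1 and 0.139 for Cd3e without Ctrl replicate 1. The call of Cd3e was lost with a replicate block as well (adjusted p = 0.0611, limma). With no filter both calls were lost (adjusted p = 0.0581 for Nkg7 and 0.103 for Cd3e, limma), as they were without the trend (0.0597 and 0.0537). Of 8 mast cell and basophil markers tested, 1 was higher and 4 lower in DNP than in Ctrl, 3 higher and 2 lower in PF than in DNP, and 3 higher and 4 lower in PF than in Ctrl, beside 29.2%, 48.8% and 57.7% of all genes called. Of these 5, 5 and 7 calls, 4, 2 and 5 held under all 13 alternatives. From DNP to PF, Fcer1a and Mcpt2 lost the call with equalised sums (adjusted p = 0.0579 and 0.171), Mcpt2 also in 4 fits without 1 sample (highest 0.0679, without PF replicate 1) and with no filter (0.0551), and Hdc lost it with median ratios (0.104). From Ctrl to PF, Fcer1a and Ms4a2 lost it with equalised sums (adjusted p = 0.363 and 0.219) and Fcer1a also in 4 fits without 1 sample (highest 0.102, without PF replicate 2), without the trend (0.0720) and with no filter (0.0613). From Ctrl to DNP, Hdc lost it without DNP replicate 1 or 2 (adjusted p = 0.0699 and 0.0520) and without the trend (0.0537). Cd68, the most abundant macrophage marker, had 1.51, 1.65 and 1.54 FPKM in Ctrl and 0.57, 1.34 and 0.97 FPKM in PF. It passed the filter through its Ctrl samples, which favoured a lower call, and the call in PF against Ctrl was lost in 5 fits without 1 sample (highest adjusted p = 0.0939, without PF replicate 1), with median ratios (0.0529) and with no filter (0.0736). The part of these markers in the results below was not tested. In bulk RNA, fewer cells of a kind and less RNA per cell cannot be told apart.

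Stimulation was visible in genes known to answer IgE receptor crosslinking. Egr1, an immediate early transcription factor, had 3.59, 4.00 and 3.35 FPKM in Ctrl, 158.35, 176.09 and 173.53 FPKM in DNP and 218.71, 220.80 and 238.23 FPKM in PF. The cytokine gene Il4 had 2.33 ± 0.118 FPKM in Ctrl (mean ± SD, n = 3), 12.3 ± 0.514 FPKM in DNP and 3.49 ± 0.856 FPKM in PF. Of the 8 stimulation check genes 7 were higher in DNP than in Ctrl, and the exception was Tnf with an adjusted p of 0.0606 (limma). In PF against DNP 4 of them were higher (Egr1, Fos, Fosb, Tnf) and 4 lower (Egr3, Il4, Il13, Ccl2). All 8 were higher in PF than in Ctrl. There Il4 lost the call in 4 fits without 1 sample (highest adjusted p = 0.0899, without PF replicate 3). The Il4 call was also lost with no filter (adjusted p = 0.0786) and under equalised sums (0.0500289). Among all genes tested, 14.7% were higher in DNP than in Ctrl, 18.1% higher and 30.7% lower in PF than in DNP, and 23.1% higher in PF than in Ctrl.

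Mcl1 was the most abundant member in every group, and the effectors came next. In Ctrl the mean levels in FPKM fell in the order Mcl1 (170.3), Bax (104.4), Bak1 (82.4), Bcl2l1 (33.4), Bad (15.4), Bcl2a1 (10.25), Bid (9.96), Bcl2 (9.34) and Bcl2l11 (5.08). The sample ranges of Bcl2a1, Bid and Bcl2 overlapped with those of their neighbours in that order, and those of the other neighbours did not. Mcl1 lay above 97.2% of all genes with a value in Ctrl and Bcl2l11, the lowest member, above 55.9%. In DNP the order kept Mcl1 first, with Bax (87.8) and Bak1 (86.5) overlapping. In PF Bak1 (94.2) and Bax (91.4) overlapped just below Mcl1 (101.65), and Bad (18.4) and Bcl2l1 (16.9) overlapped below them.

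**Figure D1:**
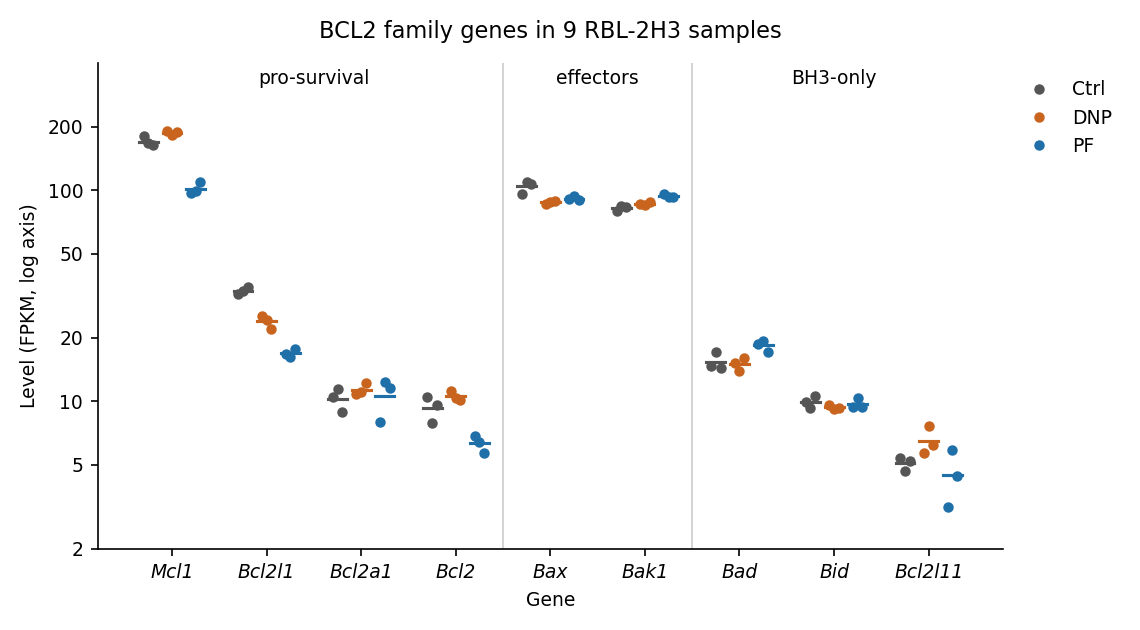
Level of each of the 9 members with values, in FPKM on a log axis, in each of the 3 Ctrl, 3 DNP and 3 PF samples; points are samples, short lines are group means, and grey lines separate pro-survival genes, effectors and BH3-only genes. The PF samples of Mcl1 (96.99 to 109.25 FPKM), Bcl2l1 and Bcl2 lie below all Ctrl and DNP samples, while the groups of Bid and Bcl2a1 overlap.

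Changes were tested with limma on log2(FPKM + 1) across every gene that reached 1 FPKM in 3 or more of the 6 samples compared, with Benjamini-Hochberg adjustment over all of them, and called at an adjusted p of at most 0.05. Log2 fold changes below are on this scale, which understates the change of low genes. All 9 members with values passed the filter in each comparison. Each pair of comparisons shares a group of samples, so the 3 sets of values are not independent. An exact two-sided permutation test of 3 against 3 samples cannot go below p = 0.1.

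Bcl2l1, the gene of BCL-XL, and Bax were lower in DNP than in Ctrl, and Mcl1 showed a small rise. The DNP group received both sensitization and antigen. With Ctrl labelled untreated in one field, the parts of sensitization and antigen cannot be told apart. Of the 9 tested members 3 were called, 1 higher and 2 lower, beside 29.2% of all 10392 genes tested (14.7% higher, 14.4% lower), so the share of members lay near that of all genes. Their median log2 fold change was 0.069, against −0.0081 over all genes tested. Between PF and DNP, Mcl1, Bcl2l1, Bcl2 and Bcl2l11 were lower and Bak1 and Bad higher. These are 6 of 9 members beside 48.8% of 10329 genes (18.1% higher, 30.7% lower), with medians of −0.11 for the members and −0.038 for all genes. Between PF and Ctrl, Bcl2l1, Mcl1, Bcl2 and Bax were lower and Bak1 and Bad higher. These are again 6 of 9, beside 57.7% of 10361 genes (23.1% higher, 34.6% lower), with medians of −0.18 and −0.047.

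How calls divided into higher and lower in the PF comparisons depended on scaling. Of the genes called between PF and DNP, 37.1% were higher with values as deposited, 51.5% after scaling by median ratios and 16.8% after equalising the sums. Between PF and Ctrl the shares were 40.0%, 51.1% and 26.7%. Equalising the sums lowered PF values against the other groups, and median ratios raised them.

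Mcl1 encodes a short-lived pro-survival protein. It was measured at 179.89, 167.28 and 163.78 FPKM in Ctrl, at 191.82, 183.51 and 188.00 FPKM in DNP and at 96.99, 98.71 and 109.25 FPKM in PF. The PF samples lay far below all 6 others, and the DNP samples lay just above those of Ctrl. From DNP to PF the log2 fold change was −0.88 (SE 0.0467, adjusted p = 1.69e-06), or 0.543 times the DNP value of FPKM + 1. Against Ctrl it was −0.74 (SE 0.0556, adjusted p = 1.39e-05). The rise from Ctrl to DNP was small, at 0.14 (SE 0.0412, adjusted p = 0.0338). That call was lost without Ctrl replicate 2 (adjusted p = 0.0903), Ctrl replicate 3 (0.0851), DNP replicate 1 (0.108), DNP replicate 2 (0.0578) or DNP replicate 3 (0.0861), and also with no filter (0.0705), with all 3 groups in the fit (0.0561) and without the trend (0.0796).

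Bcl2l1 is the source of BCL-XL, a long-lived pro-survival protein. Its values were 32.09, 33.22 and 34.99 FPKM in Ctrl, 25.51, 24.17 and 22.01 FPKM in DNP and 16.78, 16.16 and 17.76 FPKM in PF. No groups overlapped, and the level stepped down from Ctrl to DNP to PF. The log2 fold change was −0.47 from Ctrl to DNP (SE 0.0595, adjusted p = 0.00103) and −0.47 from DNP to PF (SE 0.0616, adjusted p = 0.000296). From Ctrl to PF it was −0.94 (SE 0.0534, adjusted p = 3.41e-06), or 0.520 times the control value of FPKM + 1. These 3 calls held under all 13 alternatives.

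Bcl2, the founding member, is a pro-survival gene expressed here at a low level. Its values were 10.52, 7.91 and 9.60 FPKM in Ctrl, 11.17, 10.36 and 10.19 FPKM in DNP and 6.87, 6.44 and 5.68 FPKM in PF. The PF samples lay below all others, and Ctrl and DNP overlapped. The log2 fold change was −0.66 from DNP to PF (SE 0.0746, adjusted p = 0.000128) and −0.49 from Ctrl to PF (SE 0.104, adjusted p = 0.00373). Between DNP and Ctrl it was 0.17 with a 95% confidence interval of −0.044 to 0.38 (adjusted p = 0.208).

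Bcl2a1 encodes A1, a pro-survival protein induced by IgE receptor activation in mast cells. It had 10.43, 11.39 and 8.93 FPKM in Ctrl, 10.81, 11.06 and 12.22 FPKM in DNP and 7.96, 12.39 and 11.58 FPKM in PF. All 3 groups overlapped, and PF replicate 1 was the lowest of the 9 samples. No comparison passed, with confidence intervals of −0.059 to 0.34 for DNP against Ctrl, −0.41 to 0.20 for PF against DNP and −0.30 to 0.37 for PF against Ctrl. The estimate for PF against DNP (−0.11) turned to 0.072 without PF replicate 1. That for PF against Ctrl (0.034) turned to −0.053 without Ctrl replicate 3, −0.078 without PF replicate 2 and −0.033 without PF replicate 3.

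Bax encodes the effector that moves from the cytosol to mitochondria. It had 96.21, 109.86 and 107.06 FPKM in Ctrl, 86.48, 87.89 and 88.98 FPKM in DNP and 90.70, 93.86 and 89.62 FPKM in PF. All Ctrl samples lay above all DNP and PF samples. Bax fell from Ctrl to DNP by 0.24 on the log2 scale (SE 0.0498, adjusted p = 0.00800). It was lower in PF than in Ctrl by a log2 fold change of −0.19 (SE 0.0529, adjusted p = 0.0149), a call lost after scaling by median ratios (−0.12, adjusted p = 0.0851) and without Ctrl replicate 2 (−0.15, adjusted p = 0.0510). Between PF and DNP it was 0.057 as deposited (adjusted p = 0.176), 0.12 after scaling by median ratios (adjusted p = 0.0180) and −0.041 with equalised sums (adjusted p = 0.322), so no direction can be given.

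Bak1 encodes the effector that resides at the mitochondrial membrane. Its values were 79.84, 83.81 and 83.45 FPKM in Ctrl, 85.69, 85.55 and 88.16 FPKM in DNP and 96.46, 93.23 and 92.94 FPKM in PF. The groups did not overlap, and the PF samples were the highest. The log2 fold change from DNP to PF was 0.12 (SE 0.0322, adjusted p = 0.0124), against 0.19 with median ratios (adjusted p = 0.00189) and 0.024 with equalised sums (adjusted p = 0.591). From Ctrl to PF it was 0.19 (SE 0.0376, adjusted p = 0.00251), against 0.26 with median ratios (adjusted p = 0.000545) and 0.11 with equalised sums (adjusted p = 0.0350). From Ctrl to DNP it was 0.069 (adjusted p = 0.160).

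Bad, a BH3-only gene whose product is inactivated by phosphorylation and held by 14-3-3 proteins, was higher in PF. It had 14.71, 17.16 and 14.37 FPKM in Ctrl, 15.16, 13.95 and 15.97 FPKM in DNP and 18.72, 19.40 and 17.11 FPKM in PF. The lowest PF sample lay above every DNP sample and just below Ctrl replicate 2. The log2 fold change was 0.28 against DNP (SE 0.0649, adjusted p = 0.00717), and 0.34 with median ratios (adjusted p = 0.00349) or 0.18 with equalised sums (adjusted p = 0.0315). Between DNP and Ctrl it was −0.032 (adjusted p = 0.781), and the sign turned without Ctrl replicate 2 (0.043) or DNP replicate 2 (0.017). Against Ctrl the PF value was 0.24 (SE 0.0764, adjusted p = 0.0233). The call against Ctrl was lost without Ctrl replicate 1 (adjusted p = 0.0714), Ctrl replicate 3 (0.0715), PF replicate 1 (0.0682) or PF replicate 2 (0.0766), with equalised sums (0.17, adjusted p = 0.0710) and with no filter (0.0549), and kept with median ratios (0.31, adjusted p = 0.00832).

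Bcl2l11 encodes BIM, a BH3-only protein that binds all pro-survival members. It had 5.36, 4.69 and 5.20 FPKM in Ctrl, 5.69, 7.66 and 6.19 FPKM in DNP and 3.15, 5.91 and 4.42 FPKM in PF. DNP samples lay above those of Ctrl, and the PF samples were widely spread. The fall from DNP to PF had a log2 fold change of −0.47 (SE 0.172, adjusted p = 0.0472). This call was lost without DNP replicate 2 (adjusted p = 0.143), DNP replicate 3 (0.0826), PF replicate 1 (0.134) or PF replicate 3 (0.0917), and in 4 other alternatives (adjusted p = 0.0505 with a pseudocount of 0.1, 0.134 with no filter, 0.0721 with median ratios, 0.0764 without the trend). From Ctrl to DNP the log2 fold change was 0.30 with an adjusted p of 0.0585, and it passed without DNP replicate 1 (0.38, adjusted p = 0.0377). Against Ctrl the value in PF was −0.18 (adjusted p = 0.375), and it passed without PF replicate 2 (−0.36, adjusted p = 0.0420) but turned to 0.010 without PF replicate 1.

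Bid links death receptors to mitochondria once caspase-8 cleaves its product. It varied least among the members, between 9.20 and 10.62 FPKM over the 9 samples. No comparison passed (adjusted p = 0.373, 0.534 and 0.731 for DNP against Ctrl, PF against DNP and PF against Ctrl), and in the PF comparisons the sign of the small difference changed with scaling, and in PF against Ctrl (−0.030) also without Ctrl replicate 3 (0.014).

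**Figure D2:**
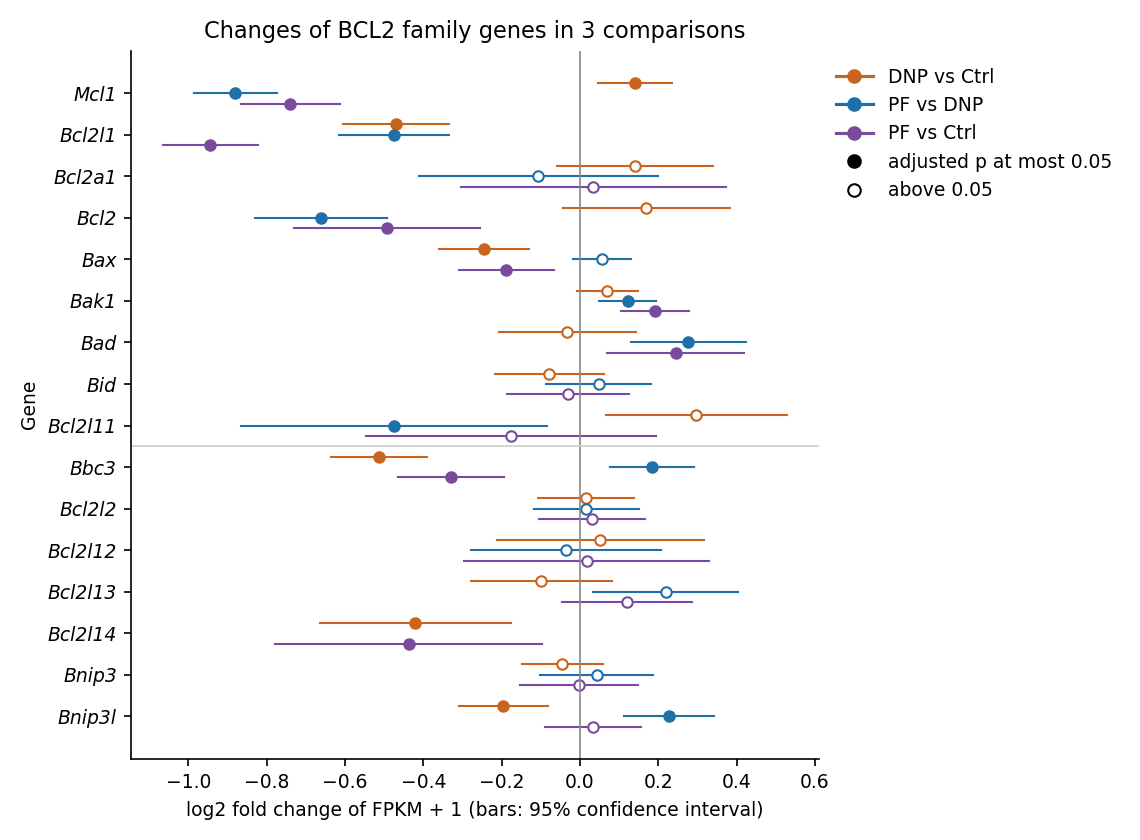
Log2 fold change of FPKM + 1 for the 9 members (above the grey line) and 7 other BCL2 family genes (below it) in the 3 comparisons; points are limma estimates from 3 against 3 samples, bars are 95% confidence intervals, and filled points have an adjusted p of at most 0.05. Mcl1, Bcl2l1 and Bcl2 lie left of 0 in both PF comparisons (−0.88, −0.47 and −0.66 against DNP), whereas the rises of Bak1 against DNP and of Bad against Ctrl are lost when the sums are equalised.

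Summed by role within each sample, the 4 pro-survival genes came to 232.93, 219.80 and 217.30 FPKM in Ctrl, 239.31, 229.10 and 232.42 FPKM in DNP and 128.60, 133.70 and 144.27 FPKM in PF. The sum of Bax and Bak1 stayed between 172.17 and 193.67 FPKM in all samples. The ratio of the pro-survival sum to the effector sum, which does not depend on how a sample is scaled, was 1.32, 1.13 and 1.14 in the Ctrl samples, 1.39, 1.32 and 1.31 in those of DNP and 0.687, 0.715 and 0.790 in those of PF. It was lower in all 3 PF samples than in any of the 6 Ctrl and DNP samples. The BH3-only genes Bcl2l11, Bad and Bid summed on average to 30.5 FPKM in Ctrl, 30.9 in DNP and 32.6 in PF. These sums and ratios describe transcript levels of chosen genes only, and no value of the ratio marks a threshold. Mcl1 contributed 73.8% to 80.9% of the pro-survival sum. The ratio of Mcl1 to Bcl2l1 was 5.11 ± 0.467 in Ctrl (mean ± SD, n = 3), 7.88 ± 0.570 in DNP and 6.01 ± 0.203 in PF.

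The patterns of the 3 members with the widest range of group means were compared with 10504 genes by the root mean square difference of centred log2(FPKM + 1) over the 9 samples. Nearest to Bcl2l1 were Ctns (0.0617), Sesn2 (0.0649) and Klf11 (0.0674). Ctns, the lysosomal cystine transporter, averaged 13.3 FPKM in Ctrl, 10.4 in DNP and 6.76 in PF, and Sesn2, a stress-inducible inhibitor of mTORC1 signalling, averaged 87.3, 62.9 and 46.0 FPKM. Klf11, a Krüppel-like transcription factor, averaged 21.9, 14.7 and 10.4 FPKM. Nearest to Mcl1 were Notch2 (0.0438), Trib2 (0.0469) and Clip2 (0.0501), all with their lowest samples in PF. Trib2, a pseudokinase, averaged 167.9, 178.3 and 99.9 FPKM in Ctrl, DNP and PF, and the receptor gene Notch2 averaged 23.4, 25.0 and 13.25 FPKM. Nearest to Bcl2 were Slc17a3 (0.0686), Adora3 (0.0850) and Usf3 (0.0941). Slc17a3, a solute carrier gene, was low, at 0.81 to 1.09 FPKM in Ctrl, 1.07 to 1.24 in DNP and 0.24 to 0.50 in PF. It passed the filter through its DNP samples and was not tested between PF and Ctrl. Adora3, the adenosine A3 receptor of mast cells, averaged 8.49, 9.64 and 5.83 FPKM.

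Of 13 other BCL2 family genes, 11 had values. Bik and Hrk lay at or near 0, Bcl2l15 at no more than 0.41 FPKM, and Bcl2l10 and Bok were not analysed here. Of these, 7 passed the filter in DNP against Ctrl and in PF against Ctrl, and 6 in PF against DNP. Their calls numbered 3 of 7 (all lower), 2 of 6 (both higher) and 2 of 7 (both lower) in DNP against Ctrl, PF against DNP and PF against Ctrl, beside 29.2%, 48.8% and 57.7% of all genes, with median log2 fold changes of −0.098, 0.11 and 0.017. Of these 3, 2 and 2 calls, 1, 0 and 1 held under all 13 alternatives.

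Bbc3, which encodes the BH3-only protein PUMA, was by far the most abundant of them. It had 86.05, 98.25 and 89.05 FPKM in Ctrl, 63.91, 60.90 and 65.71 FPKM in DNP and 74.90, 74.15 and 67.91 FPKM in PF. The 3 groups did not overlap, with PF between the others. Bbc3 fell from Ctrl to DNP by 0.51 on the log2 scale (SE 0.0535, adjusted p = 0.000455) and was also lower in PF than in Ctrl (−0.33, SE 0.0592, adjusted p = 0.00162). From DNP to PF it was higher by 0.18 (SE 0.0472, adjusted p = 0.0110), a call lost with equalised sums (0.086, adjusted p = 0.126).

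Bmf, a BH3-only gene linked to detachment from the cytoskeleton and to growth factor loss, was low and did not pass the filter. It had 0.93, 1.02 and 1.10 FPKM in Ctrl, 0.73, 0.78 and 0.78 FPKM in DNP and 0.08, 0.31 and 0.23 FPKM in PF. The groups did not overlap at these levels, and Bmf was not tested.

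Bnip3l, a mitophagy receptor also called NIX, averaged 20.1 ± 0.850 FPKM in Ctrl, 17.5 ± 0.638 FPKM in DNP and 20.6 ± 0.950 FPKM in PF (mean ± SD, n = 3). It was lower in DNP than in Ctrl (−0.20, adjusted p = 0.0203), which was lost without Ctrl replicate 1 (0.0586), Ctrl replicate 2 (0.0517) or DNP replicate 1 (0.0731). It was higher in PF than in DNP (0.23, SE 0.0509, adjusted p = 0.00559), which was lost with equalised sums (0.13, adjusted p = 0.0833). Bcl2l14 passed the filter through its Ctrl samples (1.32, 1.55 and 1.5 FPKM, against 0.70 to 1.05 in DNP), so its lower values in DNP and PF were favoured by the filter. Both calls were lost without single samples (highest adjusted p = 0.0635 without Ctrl replicate 2 in DNP against Ctrl, and 0.105 without PF replicate 1 in PF against Ctrl). With no filter the Bcl2l14 call in PF against Ctrl was lost too (adjusted p = 0.0688). Bcl2l2, which encodes the pro-survival BCL-W, stayed between 7.42 and 8.15 FPKM, and Bcl2l12 (10.02 to 14.95 FPKM), Bcl2l13 (12.27 to 17.67 FPKM) and Bnip3 (24.44 to 29.11 FPKM) were not called. Bcl2l13 passed between PF and DNP (main adjusted p = 0.0525) without DNP replicate 2 (0.0392) or PF replicate 2 (0.0341), with all 3 groups in the fit (0.0465) and with median ratios (0.0162).

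Genes that act downstream of the mitochondria, and the caspase genes Casp8 and Casp2, are given singly, with no count over a list. Other caspase genes were tested and are not named here. Apaf1, the scaffold of the apoptosome, stepped down from 20.8 ± 0.182 FPKM in Ctrl to 15.9 ± 0.312 in DNP and 11.6 ± 0.624 in PF. Its log2 fold change was −0.37 from Ctrl to DNP (adjusted p = 0.000613) and −0.43 from DNP to PF (adjusted p = 0.000255). Casp8, the initiator caspase of death receptors, had 12.30, 11.12 and 12.03 FPKM in DNP and 6.53, 7.66 and 7.08 FPKM in PF. Its log2 fold change was −0.67 (SE 0.0696, adjusted p = 8.36e-05). Casp2 was also lower in PF than in DNP (−0.43).

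Parp1, a DNA repair enzyme that is cleaved during apoptosis, rose from 32.8 ± 0.832 FPKM in Ctrl to 43.0 ± 0.993 in DNP (log2 fold change 0.38, adjusted p = 0.000393) and stood at 47.2 ± 1.12 in PF. Cycs, the cytochrome c gene, averaged 208.5, 228.0 and 258.5 FPKM in Ctrl, DNP and PF. The rises of Parp1 and Cycs from DNP to PF (0.13 and 0.18) were lost with equalised sums (adjusted p = 0.516 and 0.0870), and that of Parp1 without DNP replicate 1 or 3 (0.0557 and 0.0508). Aifm1 (0.15) and Cycs (0.13) were higher in DNP than in Ctrl, and each lost the call in at least 1 fit without 1 sample, with the highest adjusted p at 0.0626 for Aifm1 without DNP replicate 3 and 0.0812 for Cycs without DNP replicate 3. Between PF and Ctrl, Aifm1 was higher (0.12), a call lost with equalised sums (adjusted p = 0.519) and in each of the 6 fits without 1 sample (highest 0.105, without Ctrl replicate 2). Without the trend this call of Aifm1 was lost as well (adjusted p = 0.0570), as was that of Cycs in DNP against Ctrl (0.0658).

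Among the inhibitor of apoptosis (IAP) proteins and their antagonists, Birc3 stood out. Birc3 encodes cIAP2, a ubiquitin ligase of TNF receptor signalling that is induced through NF-κB. It had 72.50, 70.60 and 70.36 FPKM in Ctrl, 62.42, 59.28 and 59.72 FPKM in DNP and 26.87, 23.22 and 27.51 FPKM in PF. The groups did not overlap, and PF was the lowest. The log2 fold change was −0.23 from Ctrl to DNP (SE 0.0350, adjusted p = 0.00226) and −1.197 from DNP to PF (SE 0.0614, adjusted p = 1.39e-06). Of the 8 genes tested in each comparison, 2 were lower in DNP than in Ctrl, 3 were higher and 2 lower in PF than in DNP, and 1 was higher and 4 lower in PF than in Ctrl, with medians of −0.047, −0.022 and −0.073, beside 29.2%, 48.8% and 57.7% of all genes called. Diablo, the mitochondrial IAP antagonist SMAC, averaged 73.6 FPKM in Ctrl, 59.1 in DNP and 65.6 in PF, with a log2 fold change of −0.31 from Ctrl to DNP (adjusted p = 0.000472).

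Birc3 was the only 1 of the 5 calls between PF and DNP in this list that held under all 13 alternatives. Xiap, the direct caspase inhibitor, had a log2 fold change of −0.24 as deposited. Its call was lost with median ratios (adjusted p = 0.0819), a replicate block (0.0701) and no filter (0.0948). In 4 fits without 1 sample it was also lost (highest adjusted p = 0.122, without DNP replicate 2). The rises of Diablo, Htra2 and Birc5 (0.15, 0.15 and 0.10) were lost with equalised sums (adjusted p = 0.262, 0.418 and 0.922). Htra2 also lost it in 4 fits without 1 sample (highest 0.0999, without DNP replicate 3) and Birc5 in 4 (highest 0.141, without DNP replicate 1). The Birc5 call was lost as well with a replicate block (adjusted p = 0.0638), without the trend (0.0905) and with no filter (0.0503). Between PF and Ctrl, Xiap (−0.38), Birc2 (−0.21), Birc3 (−1.43) and Htra2 (0.28) kept their calls, while that of Diablo (−0.16) was lost with median ratios (adjusted p = 0.0503).

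Of the death receptor genes only 6 of the 10 were tested, since Fas, Tnfrsf1a, Tnfrsf10b and Tnfrsf21 lay at or near 0. Calls were 2 lower in DNP against Ctrl, 4 lower in PF against DNP, and 1 higher and 5 lower in PF against Ctrl, with medians of −0.089, −0.53 and −0.56. Among all genes tested, 14.4%, 30.7% and 34.6% were lower in these comparisons, and the difference from this list was not tested. Traf2, an adaptor that brings cIAP proteins to TNF receptors, had 14.64, 16.10 and 16.22 FPKM in Ctrl, 12.81, 13.36 and 12.30 FPKM in DNP and 6.38, 5.54 and 5.34 FPKM in PF. The groups did not overlap, and the log2 fold change was −0.27 from Ctrl to DNP (adjusted p = 0.0101) and −1.04 from DNP to PF (SE 0.0718, adjusted p = 7.25e-06). Ripk1, a kinase of the same complex, and Cflar, which encodes the caspase-8 inhibitor c-FLIP, were lower in PF than in DNP by log2 fold changes of −0.67 and −0.46. Fadd, the adaptor of caspase-8, was low (2.27, 4.16 and 2.46 FPKM in DNP, 1.84, 1.92 and 0.97 FPKM in PF). Its log2 fold change of −0.61 lost the call without DNP replicate 2 (adjusted p = 0.0939) or PF replicate 3 (0.0977). The Fadd call against Ctrl was lost without Ctrl replicate 2, Ctrl replicate 3 or PF replicate 3 (0.0515, 0.0679 and 0.0521). With no filter both calls were lost (0.0987 against DNP and 0.0650 against Ctrl), and that against DNP also without the trend (0.0530). Faslg was lower in DNP than in Ctrl (−0.41), a call lost in 5 fits without 1 sample (highest adjusted p = 0.0816, without DNP replicate 2) and with no filter (0.0573), and lower in PF than in Ctrl (−0.56). It was low, at 1.84 to 2.05 FPKM in Ctrl and 0.89 to 1.16 FPKM in PF, and passed the filter against PF through its Ctrl samples, which favoured a lower call. That call held with no filter. The rise of Tradd against Ctrl (0.15) was lost with equalised sums (adjusted p = 0.269) and in 5 fits without 1 sample (highest 0.139, without PF replicate 1). That call was also lost with a replicate block (adjusted p = 0.0642), with all 3 groups in the fit (0.0670) and with no filter (0.0533).

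Among genes of mitochondrial channels and of membrane remodelling, Dnm1l had the largest change from Ctrl to DNP. All 12 were tested, and calls were 3 higher in DNP against Ctrl, 2 higher and 1 lower in PF against DNP, and 5 higher and 1 lower in PF against Ctrl, with medians of 0.074, −0.0077 and 0.084, beside 29.2%, 48.8% and 57.7% of all genes called. Dnm1l, the mitochondrial fission GTPase DRP1, had 21.06, 19.41 and 21.86 FPKM in Ctrl, 30.52, 31.12 and 30.48 FPKM in DNP and 29.76, 29.47 and 33.00 FPKM in PF. It was higher in both stimulated groups than in Ctrl, by 0.54 in each comparison (adjusted p = 0.000244 for DNP and 0.000128 for PF). Vdac2, a channel that recruits BAK to the outer membrane, averaged 113.4 FPKM in Ctrl, 126.3 in DNP and 127.5 in PF, and Vdac1 averaged 77.3, 84.8 and 91.1 FPKM. The rise of Vdac2 from Ctrl to DNP (0.15) was lost without DNP replicate 3 (adjusted p = 0.0502), and that of Vdac1 (0.13) in 4 fits without 1 sample (highest 0.0738, without DNP replicate 3) and without the trend (0.0595). None of the 3 calls between PF and DNP (Vdac1 0.10, Slc25a4 0.13, Mfn2 −0.18) held under all 13 alternatives, with adjusted p of 0.952 and 0.466 for Vdac1 and Slc25a4 with equalised sums and 0.126 for Mfn2 with median ratios. Without 1 sample, Vdac1 lost the call in 4 fits (highest adjusted p = 0.0980, without DNP replicate 2), Mfn2 in 3 (0.130, without DNP replicate 1) and Slc25a4 in 1 (0.0503, without DNP replicate 3). Vdac1 also lost it without the trend (0.0827) and with a replicate block (0.0626), and Mfn2 with no filter (0.0701). Against Ctrl, Vdac1 (0.23) and Mfn2 (−0.21) kept their calls in PF, whereas Slc25a4, Vdac2 and Slc25a5 did not with equalised sums (adjusted p = 0.0603, 0.0690 and 0.596). Slc25a5 also lost the call in 5 fits without 1 sample (highest adjusted p = 0.118, without Ctrl replicate 1), without the trend (0.0860) and with no filter (0.0673).

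Regulators of BCL2 family proteins included Foxo3 and Dynll1, which changed in opposite directions in PF. Of 14 tested in each comparison, 6 were higher and 3 lower in DNP than in Ctrl, 7 higher and 5 lower in PF than in DNP, and 6 higher and 4 lower in PF than in Ctrl, with medians of 0.16, 0.071 and 0.057, beside 29.2%, 48.8% and 57.7% of all genes called. Of the 9, 12 and 10 calls, 6, 9 and 9 held under all 13 alternatives. Foxo3, a transcription factor known to drive Bcl2l11 and Bbc3, had 16.43, 14.81 and 14.68 FPKM in Ctrl, 17.90, 19.00 and 16.39 FPKM in DNP and 5.99, 5.74 and 6.59 FPKM in PF. The PF samples lay far below the others, with a log2 fold change of −1.40 against DNP (SE 0.0712, adjusted p = 1.36e-06). Foxo1 was higher in DNP than in Ctrl by 0.33 (adjusted p = 0.00283) and lower in PF than in DNP by a log2 fold change of −0.38 (adjusted p = 0.000466). Dynll1, the dynein light chain that can tether BIM, stepped up from 108.21, 110.18 and 113.71 FPKM in Ctrl to 178.77, 186.92 and 179.66 FPKM in DNP and 240.54, 239.58 and 248.15 FPKM in PF. Its log2 fold change was 0.71 from Ctrl to DNP (SE 0.0341, adjusted p = 6.58e-06) and 0.42 from DNP to PF (SE 0.0320, adjusted p = 1.34e-05), and both held under the 2 other scalings.

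In the same list, Pim1 and Pim2, kinases that phosphorylate BAD, were lower in PF than in DNP by log2 fold changes of −0.58 and −0.56 (adjusted p = 1.56e-05 and 8.20e-05). Pim1 was higher in DNP than in Ctrl (0.25) and Pim2 lower (−0.22). Fbxw7, a ubiquitin ligase subunit that targets MCL1, averaged 20.5 FPKM in Ctrl, 21.7 in DNP and 14.6 in PF, with a log2 fold change of −0.54 from DNP to PF (adjusted p = 1.93e-05). Ywhaz, a 14-3-3 gene, averaged 264.5, 272.9 and 314.7 FPKM and was higher in PF than in DNP by 0.20 (adjusted p = 0.000872). Bag1, a BCL2-binding cochaperone, was lower in DNP than in Ctrl (−0.16) and higher in PF than in DNP (0.22). Dynll2 moved likewise (−0.22 and 0.21), but its calls were lost without DNP replicate 2 (adjusted p = 0.0788 and 0.0547). The second Dynll2 call was also lost with equalised sums (0.1001). The first was also lost without Ctrl replicate 3 (0.0603) or DNP replicate 1 (0.0550) and with no filter (0.0545). Bag3 was higher in DNP than in Ctrl by 0.25, a call lost without Ctrl replicate 2 or DNP replicate 1 (adjusted p = 0.0536 and 0.0540), and higher in PF than in Ctrl by 0.36. From DNP to PF its rise (0.11) was lost in each of the 6 fits without 1 sample (highest adjusted p = 0.121, without DNP replicate 3), with equalised sums (0.838), without the trend (0.0652), with a replicate block (0.0841) and with all 3 groups in the fit (0.136). Akt1 was higher in PF than in Ctrl by 0.33. Its rise from DNP to PF (0.13) was lost without DNP replicate 1 (adjusted p = 0.0529) or DNP replicate 2 (0.0626), with equalised sums (0.565) and with all 3 groups in the fit (0.0783), and that from Ctrl to DNP (0.20) without DNP replicate 1, 2 or 3 (0.0802, 0.0738 and 0.104), without the trend (0.0664) and with no filter (0.0845). The rise of Tmbim6 from Ctrl to PF (0.15) was lost with equalised sums (adjusted p = 0.121).

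The genes in this paragraph are given singly, with no count over a list. They are part of a longer tested list, whose widest change in each comparison belongs to a gene not named in this paragraph. Gadd45a, a stress gene, averaged 1891, 1530 and 952 FPKM in Ctrl, DNP and PF. Its log2 fold change was −0.31 from Ctrl to DNP (adjusted p = 0.00153) and −0.68 from DNP to PF (adjusted p = 9.48e-06). Cdkn1a, the cell cycle inhibitor p21, averaged 130.9, 104.4 and 72.4 FPKM, and Aen, a nuclease linked to apoptosis, averaged 29.9, 25.2 and 17.1 FPKM. Both were lower in PF than in DNP (−0.52 and −0.53). Mdm2, a ubiquitin ligase gene, rose from 54.7 ± 2.79 FPKM in Ctrl to 79.3 ± 3.98 in DNP (log2 fold change 0.53, adjusted p = 0.000307), and averaged 64.2 ± 2.12 in PF. Ei24 was higher in DNP than in Ctrl (0.17) and in PF than in Ctrl (0.23). Its call in DNP against Ctrl was lost in 5 fits without 1 sample (highest adjusted p = 0.139, without DNP replicate 2). That call was also lost with a replicate block (0.0730), without the trend (0.0627) and with no filter (0.0756). The call of Aen in DNP against Ctrl (−0.24) was lost in 4 fits without 1 sample (highest adjusted p = 0.0600, without DNP replicate 3) and with no filter (0.0510). The calls of Gadd45a, Cdkn1a, Aen and Mdm2 in both PF comparisons held under all 13 alternatives.

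Reference genes give a scale for small changes in PF. None of 6 was called between DNP and Ctrl, where limma gave adjusted p of 0.275 to 0.9752 and a lowest unadjusted p of 0.155 (Actb). Between PF and DNP, Gapdh, Ppia and Actb were higher by 0.28, 0.26 and 0.19, and against Ctrl by 0.30, 0.26 and 0.13. Sdha, Tbp and Hprt1 were not called. Of all genes tested, 29.2% were called between DNP and Ctrl. In PF, 18.1% were higher than in DNP and 23.1% higher than in Ctrl. Actb lost its call against Ctrl with equalised sums (adjusted p = 0.2495), with no filter (0.0800) and without Ctrl replicate 3 or PF replicate 1 (0.0562 and 0.0853). Bak1 rose by 0.12 against DNP, less than Gapdh, Ppia and Actb, and by 0.19 against Ctrl. Bad rose by 0.28 against DNP and by 0.24 against Ctrl. Whether these rises are related to those of the reference genes was not tested. The falls of Mcl1, Bcl2l1 and Bcl2 were larger than any reference gene's change.

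The promoters of 3 members that were lower together in PF are printed, because their sequences let a reader look for shared motifs. In RefSeq (build GRCr8, 250 bases before to 50 after the gene start) 9 of the 10 members matched, all but Bax. Of the 4 entries of Bcl2l1, the most upstream was taken. Motifs were searched on both strands, and capitals mark a match. They were AP-1 (TGANTCA, in 7.33% of 33469 rat promoters of this length), CRE (TGACGTCA, 1.83%), EGR (GCGNGGGCG, 4.98%), κB (GGANTTTCC, 1.28%), STAT (TTCNNNGAA, 8.87%) and ETS (CCGGAAGT, 3.81%). The Mcl1 promoter lies at chr2:185907918-185908217 on the plus strand, that of Bcl2l1 at chr3:161764726-161765025 on the minus strand and that of Bcl2 at chr13:23366851-23367150 on the minus strand.
Mcl1: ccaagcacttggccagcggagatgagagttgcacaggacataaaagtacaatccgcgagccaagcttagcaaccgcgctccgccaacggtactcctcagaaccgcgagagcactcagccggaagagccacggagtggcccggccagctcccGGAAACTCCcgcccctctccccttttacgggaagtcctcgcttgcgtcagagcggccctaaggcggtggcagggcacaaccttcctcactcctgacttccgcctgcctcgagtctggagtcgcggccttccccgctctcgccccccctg
Bcl2l1: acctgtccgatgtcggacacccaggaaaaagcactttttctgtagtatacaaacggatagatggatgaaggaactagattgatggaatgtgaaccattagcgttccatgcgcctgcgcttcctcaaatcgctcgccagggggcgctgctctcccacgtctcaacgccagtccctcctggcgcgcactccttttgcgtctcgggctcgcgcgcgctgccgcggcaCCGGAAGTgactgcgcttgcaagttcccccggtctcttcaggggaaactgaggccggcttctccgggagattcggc
Bcl2: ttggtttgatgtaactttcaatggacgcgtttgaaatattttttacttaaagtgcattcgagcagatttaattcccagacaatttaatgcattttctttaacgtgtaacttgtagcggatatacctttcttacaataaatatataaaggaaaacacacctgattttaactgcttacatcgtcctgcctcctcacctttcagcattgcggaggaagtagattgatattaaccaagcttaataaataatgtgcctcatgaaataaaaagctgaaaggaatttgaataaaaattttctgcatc
The Mcl1 window held 1 κB match, that of Bcl2l1 held 1 ETS match, and that of Bcl2 held none of the 6 motifs. G and C made up 64.3%, 59.0% and 32.7% of the bases. Among the other 6 matched members, Bcl2a1 held 1 AP-1 match (TGAATCA) and Bad 1 STAT match (TTCAGTGAA), and no window held a CRE or EGR match. The 3 windows shared no motif of those searched. A match describes letters only, and the data here do not measure binding.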

How the data were processed

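RNA of 9 RBL-2H3 samples, 3 per group, was sequenced. Per the labels and the study's methods, the authors mapped reads to rn6 with HISAT2 2.0.4 and Bowtie2 2.2.5 and quantified them with RSEM 1.2.12. The deposited values were taken as FPKM, although the file headers name no unit. Read depth is unknown. Each pair of groups was fitted with limma 3.58.1 (lmFit, eBayes with trend, R 4.3.3) on log2(FPKM + 1) over genes that reached 1 FPKM in 3 or more of 6 samples. A gene was called when its adjusted p did not exceed 0.05 (Benjamini-Hochberg over all genes tested). The procedure was tested on simulated data. Alternatives were a pseudocount of 0.1, no filter, a joint fit of the 3 groups, a block for replicate number, scaling by median ratios or to the mean sum, no trend, leaving out each sample, and a threshold of 0.01 for counts. Named were all members, detected family genes, up to 3 genes per list, comparison and direction by size of change, and the 3 genes nearest to each of 3 members. In the paragraphs that give genes singly, some of the genes this rule picks were left out. Other genes named were chosen after their values were seen. The members and lists were chosen with earlier results of these data known. Genes without values were left out.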

Additional observations from a re-analysis of the deposited data

How the results depend on the processing

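For members and other named genes, 2883 log2 fold changes were computed under alternatives. Of these, 2611 kept their direction and side of the threshold, 235 lost the call, 7 gained one and 30 changed sign. At a threshold of 0.01 in place of 0.05, the genes called between DNP and Ctrl fell from 3031 to 1469, since fewer pass a stricter threshold. With the replicate number as a block, 2697, 4675 and 6009 genes were called in DNP against Ctrl, PF against DNP and PF against Ctrl.

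With sums scaled to their mean, the log2 fold change from DNP to PF was −0.041 for Bax, −0.042 for Bid, −0.072 for Bcl2l2 and −0.053 for Bnip3, and from Ctrl to PF −0.039 for Bcl2a1, −0.040 for Bcl2l2, −0.058 for Bcl2l12 and −0.044 for Bnip3l. With median ratios it was 0.024 for Bcl2l12 from DNP to PF, and 0.032 for Bid and 0.063 for Bnip3 from Ctrl to PF. Without 1 sample at a time, values from Ctrl to DNP ran from −0.078 to 0.043 for Bad and from −0.081 to 0.15 for Bcl2l12. From DNP to PF they ran from −0.22 to 0.072 for Bcl2a1, −0.012 to 0.048 for Bcl2l2, −0.16 to 0.041 for Bcl2l12 and −0.029 to 0.081 for Bnip3. From Ctrl to PF they ran from −0.078 to 0.21 for Bcl2a1, −0.36 to 0.010 for Bcl2l11, −0.074 to 0.014 for Bid, −0.12 to 0.12 for Bcl2l12 and −0.075 to 0.036 for Bnip3. The cause of these sign changes was not tested. None of these genes was called in the comparison concerned with values as deposited. The scalings divide levels by 0.970 to 1.027 (median ratios, lowest in PF) and by 0.964 to 1.060 (sums, highest in PF). Unknown read depth limits what can be said of low genes such as Bmf and Bcl2l14.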
